A study of Mus musculus with 12 samples.

Results

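The mitosis genes are 42 genes whose products carry a cell from the end of DNA replication through chromosome segregation to division. They are defined by a list of symbols, with no threshold on their values: the 42 symbols were matched to the Ensembl identifiers of the expression table through GENCODE M21, and all 42 were found among its 55401 genes. All 42 also passed the filter on low values, a minimum of 10 normalized counts in 3 or more libraries, as did 13369 genes in all. The cells were bone marrow-derived macrophages of C57BL/6J background with the genotype Irx3-/-, differentiated for 7 days in 20 nM M-CSF and treated with 100 ng/ml LPS for 4 h. Before this, AAV (adeno-associated virus) had been used to express GFP, wild-type IRX3 (IRX3_WT) or IRX3 with the substitution S361A or S389A, with 3 RNA-seq libraries for each of the 4 constructs. Every group thus shares the loss of endogenous IRX3, the virus and the LPS, and no library is from cells with intact Irx3 or without LPS. The labels give neither the promoter that drives the constructs nor the share of cells infected, and they do not say whether libraries come from separate mice or cultures. Any p-value therefore measures the spread between these libraries, which may be technical.

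Mitosis starts when cyclin B bound to the kinase CDK1, helped by PLK1 and Aurora A, phosphorylates chromosome and spindle proteins. It ends when the anaphase-promoting complex, an ubiquitin ligase held back by the spindle checkpoint until every chromosome is attached, marks securin and the cyclins for destruction. Most of these genes are transcribed late in the cell cycle by a complex of B-MYB, MuvB and FOXM1 and are held down in resting cells by the DREAM complex. M-CSF drives division of macrophage precursors, and LPS is known to halt their cell cycle.

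Promoters are shown first because late cell cycle genes are known for 2 short elements next to their start, the cell cycle genes homology region (CHR) and CCAAT. Of the 42 members, 36 had an entry in the promoter table of RefSeq (GRCm38.p6), and Ccna2, Foxm1, Aurkb, Incenp, Kif20a and Tpx2 had none. The 250 bases before each start were searched on both strands. For the CHR the letters TTTGAA and its relative TTCGAA were searched, and for the CCAAT box the letters CCAAT, counting each motif on its own even where they share a base. The promoters printed are those of the members described by library below that hold both elements and at most 30 exon bases. They are written 5′ to 3′ on the gene's strand with the matches in capitals.
Mki67: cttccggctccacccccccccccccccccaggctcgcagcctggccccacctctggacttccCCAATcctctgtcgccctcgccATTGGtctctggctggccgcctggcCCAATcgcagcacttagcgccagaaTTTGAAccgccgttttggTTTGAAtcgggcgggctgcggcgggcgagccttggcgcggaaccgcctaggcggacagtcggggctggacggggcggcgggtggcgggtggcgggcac
Top2a: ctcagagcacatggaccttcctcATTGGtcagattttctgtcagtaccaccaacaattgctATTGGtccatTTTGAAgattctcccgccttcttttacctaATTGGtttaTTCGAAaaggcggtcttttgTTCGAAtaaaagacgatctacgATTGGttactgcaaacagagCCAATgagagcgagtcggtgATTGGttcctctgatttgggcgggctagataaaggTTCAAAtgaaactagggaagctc
Cdk1: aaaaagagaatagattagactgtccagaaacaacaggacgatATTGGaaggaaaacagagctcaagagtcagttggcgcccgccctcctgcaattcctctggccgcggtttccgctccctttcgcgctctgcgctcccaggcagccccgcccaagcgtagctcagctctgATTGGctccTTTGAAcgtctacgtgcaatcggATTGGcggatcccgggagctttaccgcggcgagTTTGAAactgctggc
Ccnb2: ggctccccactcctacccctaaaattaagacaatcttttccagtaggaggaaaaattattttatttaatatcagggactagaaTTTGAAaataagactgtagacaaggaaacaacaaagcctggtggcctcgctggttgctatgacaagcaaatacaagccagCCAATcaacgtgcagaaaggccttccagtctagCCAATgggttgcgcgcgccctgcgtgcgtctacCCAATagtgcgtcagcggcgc
Bub1b: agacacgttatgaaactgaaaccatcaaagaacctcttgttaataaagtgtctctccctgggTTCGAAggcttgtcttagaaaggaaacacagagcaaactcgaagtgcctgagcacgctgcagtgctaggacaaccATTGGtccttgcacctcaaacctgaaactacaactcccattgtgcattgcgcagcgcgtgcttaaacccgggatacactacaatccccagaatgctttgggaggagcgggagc
These windows lie at chr7:135716380-135716629 (Mki67, minus strand), chr11:99024190-99024439 (Top2a, minus strand), chr10:69352913-69353162 (Cdk1, minus strand), chr9:70421555-70421804 (Ccnb2, minus strand) and chr2:118597961-118598210 (Bub1b, plus strand). None overlaps an annotated exon except that of Cdk1, of which 26 bases are exon of Cdk1 itself in GENCODE. Top2a held 4 CHR and 6 CCAAT matches, Mki67 held 2 and 3, Cdk1 2 and 3, Ccnb2 1 and 3, and Bub1b 1 and 1.

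Shares here are of genes, and a gene with several promoters was counted if any of them held the motif. A CHR was found for 14 of the 36 members (38.9%), against 19.6% of the 27025 genes in the table. CCAAT was found in 28 of 36 (77.8%), against 37.5% of all genes. Both together were present in 13 (36.1%), against 7.00%. Lists described below shared this in part. CHR and CCAAT were found for 42.9% and 60.3% of further mitosis genes and for 24% and 68% of S phase genes. For anaphase-promoting complex and cohesin genes these were 19.0% and 42.9%. The GC box (letters GGGCGG), also searched, was found for 63.9% of members, 71.4% of that last list and 35.4% of all genes. Members that fell with IRX3_S389A relative to IRX3_WT held a CHR in 6 of 17, CCAAT in 15 and the GC box in 14. The others held them in 8, 13 and 9 of 19. A match is a run of letters, not a site shown to be bound, and its absence says nothing about what binds there.

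Libraries held 17149058 to 20108002 reads recovered from the normalized counts, and 1 read was worth 0.890 to 1.14 normalized counts. Irx3 was at 0 in the 3 GFP libraries, at 177 ± 16.3 (SD, n = 3) normalized counts with IRX3_WT, at 349 ± 21.5 with IRX3_S361A and at 187 ± 20.2 with IRX3_S389A. The S361A libraries thus carried more construct mRNA than the other IRX3 libraries, and the part of this gap in any comparison with S361A was not tested. Macrophage markers were detected 10 of 10, with sums of 397055 to 472750 in every library. Lymphocyte markers summed to at most 10.2 and granulocyte markers to at most 63.3, with Ly6g, Elane, Mpo and Ctsg at 0 in all 12. Dendritic-list genes (mostly Xcr1) summed to 115 to 176. The erythroid, mast and progenitor list (mostly Cd34) summed to 25.6 to 50.6. Cd34 had means of 42.9 with GFP, 25.3 with IRX3_WT, 25.8 with IRX3_S361A and 26.1 with IRX3_S389A. Relative to GFP, limma called it lower with IRX3_WT (log2 difference −0.80) and IRX3_S389A (−0.69), but not with IRX3_S361A (−0.72). Osteoclast-list genes, which macrophages also express, summed to 4110 to 4172 with GFP and 3595 to 3888 with IRX3_WT. They summed to 4723 to 4805 with IRX3_S361A and 4841 to 4923 with IRX3_S389A. Stromal-list genes (mostly Pdgfrb) summed to 91.2 to 125 with GFP and 245 to 259 with IRX3_WT. With IRX3_S361A and IRX3_S389A these were 142 to 200 and 211 to 213. The part of all these lists in the results was not tested. The normalized totals were lower in the GFP libraries (17325311 to 17469765) than in those with IRX3_WT (19513613 to 19796325). When every library was scaled to the same total instead, the median over all genes tested moved to −0.18 (IRX3_WT against GFP), −0.11 (IRX3_S361A against GFP) and −0.17 (IRX3_S389A against GFP) on the log2 scale, and by under 0.1 in the other comparisons. Calls against GFP that this second scaling ended or turned are given under both scalings below where the gene is described.

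The mitosis genes were expressed in all 12 libraries at moderate levels. Mean normalized counts ran from 72.2 to 3440, and no value in any library was under 40.3. Levels per kilobase used the merged length of all annotated exons of a gene. This can exceed the length of the expressed mRNA, so genes compare only roughly. On this scale the mean level over the 12 libraries ran from 4.85 for Cenpf to 342 for Mki67, with a median of 45.4. Mki67 was followed by Incenp (258), Top2a (194) and Pttg1 (116). Processed pseudogenes could share reads with 4 members: Ccnb1-ps stood at 0.928 to 12.5 and Ccnb2-ps at 0 to 4.92 normalized counts, while Kif4-ps and Kif22-ps were at 0. The strand setting of the counting is not given in the sources used here, so values of members whose exons overlap a neighbour are uncertain. This concerns Kif20a (29.3% of exon bases), Ube2c (22.8%), Kif4 (15.1%), Ccna2 (12.5%), Prc1 (11.1%) and, under 10%, Plk1, Ckap2l, Cdca8, Nusap1, Cdc20, Foxm1, Kif22 and Top2a.

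The lowest mitosis gene levels were in the IRX3_S389A libraries. Of the 42 members, 35 had their lowest group mean there, against 23.2% of all genes tested, and 1, Pttg1, had its highest there. The mean deviation of the 42 genes from their 12-library mean on the log2 scale was −0.27 to −0.20 in the 3 S389A libraries. It was 0.08 to 0.12 in the GFP libraries, 0.04 to 0.08 with IRX3_WT and 0.07 to 0.15 with IRX3_S361A. As deposited, the S389A libraries therefore stood apart from the other 9, which overlapped one another. These deviations were not computed with equal totals, so whether the other 3 groups overlap there was not tested. Under that scaling the median of the members against GFP was −0.27 for IRX3_WT and −0.12 for IRX3_S361A. The medians over all genes were −0.18 and −0.11. A bulk sample cannot tell fewer dividing cells from less mitotic mRNA per cell. Within groups, deviations of members correlated weakly: over the 861 pairs of members, the correlation of deviations from the group means had a median of 0.05, and 55.2% of pairs were above 0, as a description over 12 libraries. Counting error at these read numbers also weakens such correlations, so they cannot tell whether members moved together. Its part was not tested. The mean of the 42 genes was 0.15 in IRX3_S361A replicate 3 and 0.07 in replicates 1 and 2.

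**Figure D1:**
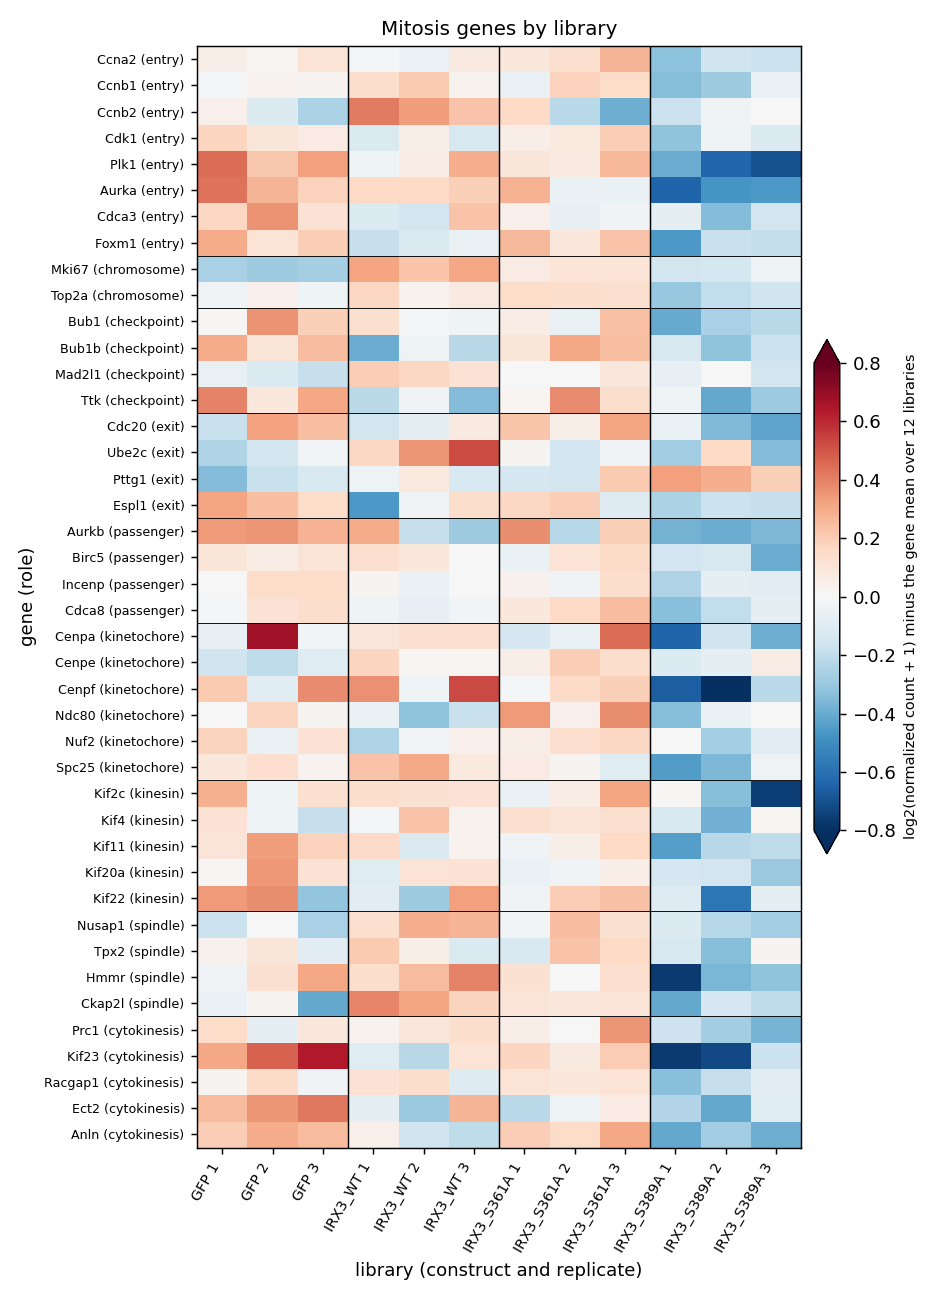
Each row is a mitosis gene, ordered by role, and each column a library. The colour is log2(normalized count + 1) minus the mean of that gene over the 12 libraries, limited at 0.8 in either direction. The 3 IRX3_S389A columns are mostly blue (below the mean), with Pttg1 as the row that is highest there.

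In what follows, a gene is said to have risen, fallen or been called when limma's moderated test on log2(normalized count + 1), adjusted over all 13369 genes, gave an adjusted p under 0.05. Over the 4 groups, limma's F-test called 36 of the 42 members, against 44.2% of all genes. Cdca3, Kif20a, Kif22, Kif4, Nuf2 and Tpx2 were not called. For members given without their values by library, a clause names the left-out library that raised the adjusted p most, where leaving out 1 library ended the call.

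With IRX3_S389A, 17 members fell relative to IRX3_WT and none rose, against 7.08% of all genes that fell and 8.21% that rose. The median log2 difference over the 42 was −0.25, against 0.00 over all genes. At an unadjusted p under 0.05, 1 member was higher and 25 were lower, and edgeR and DESeq2 on the recovered reads called 0 higher and 16 and 15 lower. All 3 S389A libraries lay below all 3 IRX3_WT libraries for 25 members (14.3% of all genes), and above them for 1 (14.8%), Pttg1. The 17 were the entry kinases Plk1 and Aurka with cyclin B1 (Ccnb1), Mki67 and Top2a, the checkpoint genes Bub1 and Mad2l1, Ube2c, Cenpf and Spc25 of the kinetochore, Kif11, the spindle genes Nusap1, Hmmr and Ckap2l, and Prc1, Kif23 and Racgap1 of the central spindle. Without IRX3_WT replicate 1 or without IRX3_S389A replicate 1 the count was 10, all lower.

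Relative to IRX3_S361A, 21 members fell with IRX3_S389A and none rose, against 3.16% and 7% of all genes. The median was −0.35, against −0.00 over all genes. By unadjusted p, 34 members were lower and 1 was higher, while edgeR called 22 lower and DESeq2 19, both with 0 higher. All 3 S389A libraries lay below all 3 S361A libraries for 34 members (11.2% of all genes) and above them for none (14.7%). Scaling to equal totals gave 27 lower and none higher, and moved the split over all genes from 936 higher and 423 lower to 597 higher and 1053 lower. The count was 11 (10 lower and 1 higher) without IRX3_S361A replicate 3 and 13 without IRX3_S389A replicate 1.

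Relative to GFP, 28 members fell with IRX3_S389A and 2 rose, Mki67 and Pttg1, against 16.2% and 18.8% of all genes (35% in either direction). All 3 S389A libraries lay below all 3 GFP libraries for 27 members (22.8% of all genes) and above them for 2 (23.6%). The median was −0.34, and −0.33 relative to the median over all genes. With equal totals 35 fell and 1, Pttg1, rose, while the split over all genes went from 2516 higher and 2160 lower to 1334 and 5397, and the median relative to all genes was again −0.33. These 3 comparisons share the S389A libraries, so they are not independent of one another.

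IRX3_WT relative to GFP moved members in both directions. With the deposited scaling 7 rose and 8 fell, against 21% and 18.6% of all genes (39.6% in either direction), so the members' shares were near the background. The median was −0.09. The 3 IRX3_WT libraries lay above all 3 GFP libraries for 8 members (24.7% of all genes) and below them for 9 (23.7%). Those that rose were Mki67, Ube2c, Ckap2l, Ccnb2, Nusap1, Mad2l1 and Cenpe, and those that fell were Kif23, Ttk, Bub1b, Aurkb, Ect2, Anln, Espl1 and Foxm1. With equal totals 2 rose, Mki67 and Ckap2l, and 19 fell, with a median of −0.27, while the split over all genes went from 2805 higher and 2483 lower to 1395 and 5519. The other 5 that had risen had log2 differences of 0.04 to 0.31 under that scaling and were no longer called.

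Few members were called with IRX3_S361A relative to either of these groups. Against IRX3_WT 16.7% were called, near the share of all genes, and against GFP 9.52%, below it. Relative to IRX3_WT, Anln, Bub1b, Foxm1 and Ndc80 rose and Ccnb2, Mki67 and Ube2c fell, 4 and 3 members against 6.43% and 9.07% of all genes (15.5% in either direction), with a median of 0.04. Groups did not overlap for 9 members higher (14.1% of all genes) and 7 lower (15.2%). The count of 7 was 4 without IRX3_WT replicate 1 or without IRX3_S361A replicate 1, 3 without IRX3_WT replicate 2 and 2 without IRX3_S361A replicate 3. With equal totals 5 rose and 2 fell, and the split over all genes went from 859 higher and 1212 lower to 1805 and 754. Relative to GFP, Mki67, Top2a and Cenpe rose and Ect2 fell, against 14.9% and 10.9% of all genes (25.9% in either direction), with a median of −0.00. Here groups did not overlap for 5 members higher (21.2%) and 3 lower (18.4%). With equal totals 1 member rose, Mki67, and 4 fell, Ect2, Kif23, Incenp and Kif11, while the split over all genes went from 1996 higher and 1461 lower to 1047 and 3226. Without GFP replicate 3 or without IRX3_S361A replicate 2 the 4 calls became 2.

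**Figure D2:**
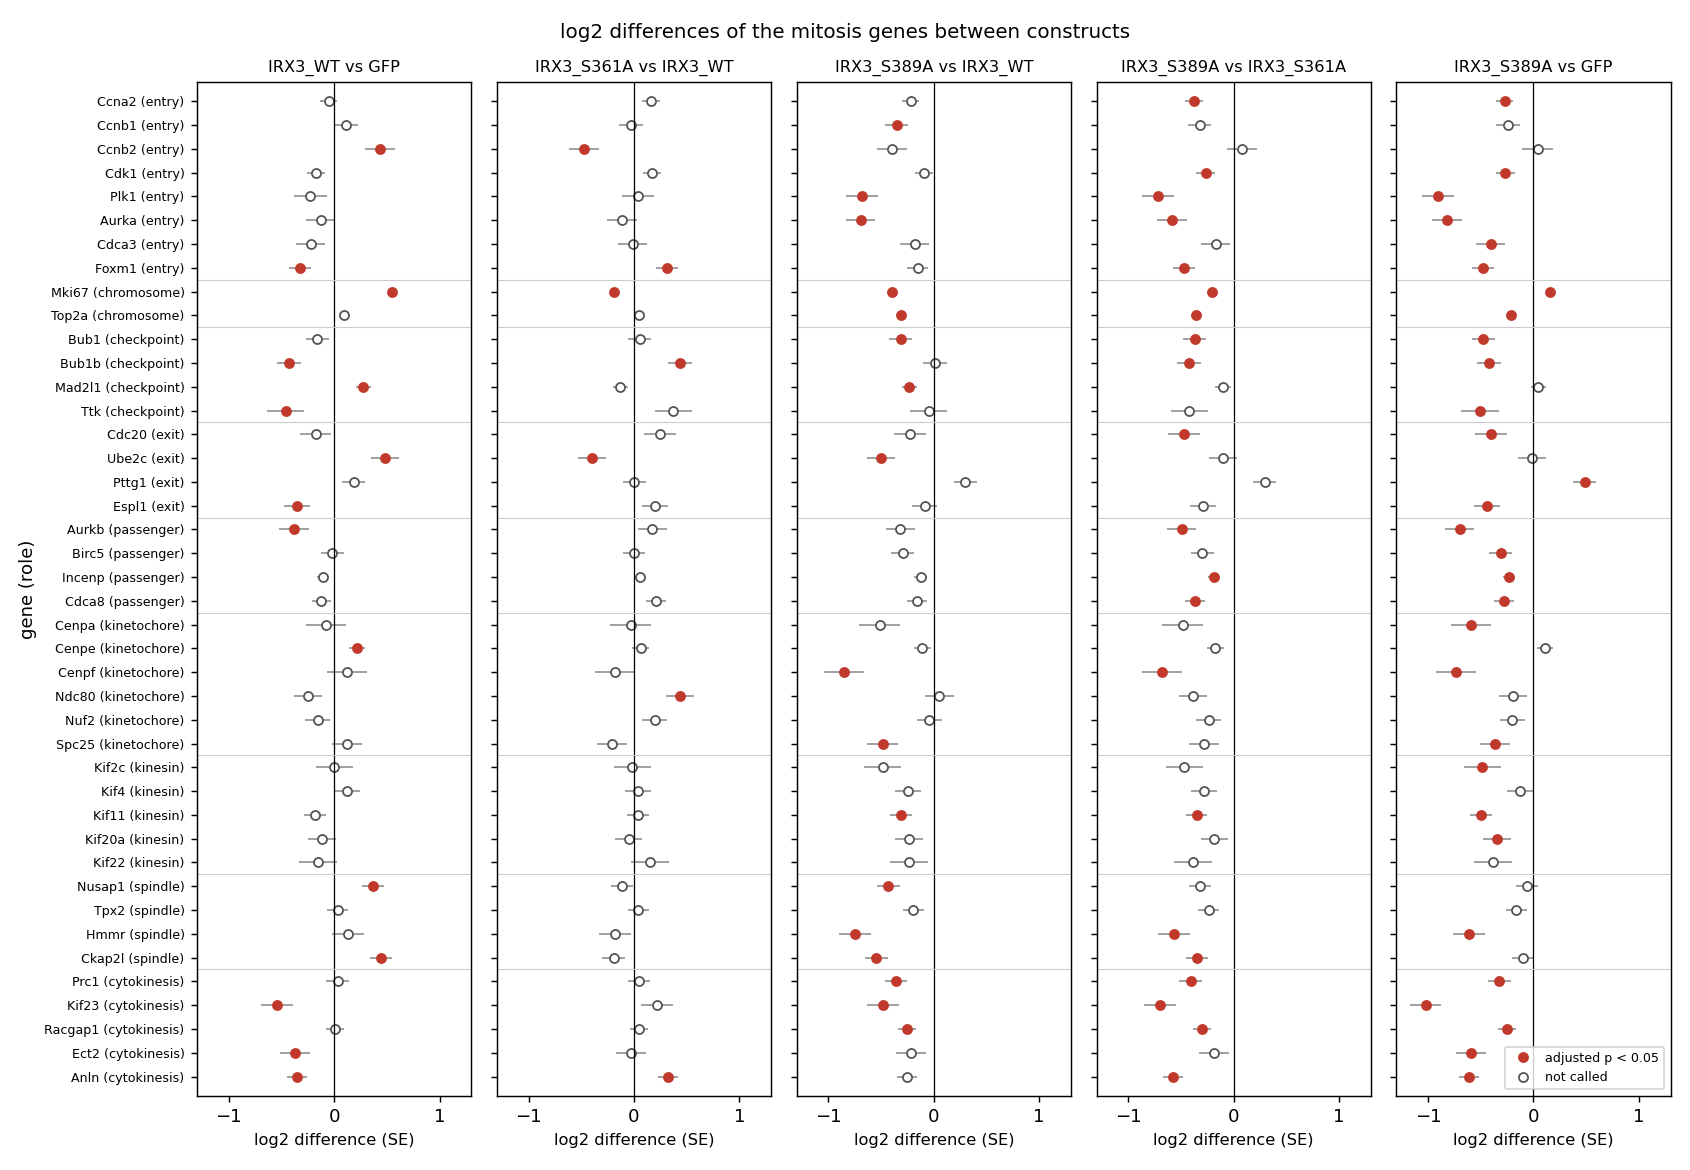
The log2 difference of each mitosis gene with its standard error is shown for 5 comparisons, one per panel, with genes ordered by role. Filled red points are genes with adjusted p under 0.05, and open points are the others. In the panels of S389A against WT and against S361A all the red points, 17 and 21, lie to the left of 0. In that of S389A against GFP 28 lie to the left and 2 to the right, of which Mki67 was not called with equal totals. In that of WT against GFP 7 lie to the right and 8 to the left, and with equal totals 2 and 19.

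Among the 8 genes of mitotic entry, Plk1 and Aurka had the largest falls with S389A in all 3 comparisons with it. Plk1, the Polo-like kinase that drives centrosome maturation and entry (chromosome 7, 122159439 to 122169873), stood at 127, 108 and 117 normalized counts in the GFP libraries, at 90.6, 96.6 and 114 with IRX3_WT, at 99.2, 97.4 and 112 with IRX3_S361A and at 70.2, 59.4 and 56.9 with IRX3_S389A. All 3 S389A libraries lay below the other 9, which overlapped. The log2 difference of S389A was −0.68 from IRX3_WT (SE 0.15, limma adjusted p = 0.00164), −0.72 from IRX3_S361A (adjusted p = 0.00126) and −0.91 from GFP (adjusted p = 9.24e-06). With equal totals Plk1 was also called lower with IRX3_WT than with GFP (−0.40, limma adjusted p = 0.0295), which it was not as deposited. Aurka, the Aurora A kinase of the spindle poles, was at 154, 137 and 129 with GFP, at 127, 127 and 130 with IRX3_WT, at 138, 109 and 110 with IRX3_S361A and at 72.3, 81.5 and 82.3 with IRX3_S389A. Again the S389A libraries were the lowest 3 of 12. Its differences were −0.69 from IRX3_WT (SE 0.14, limma adjusted p = 0.000429), −0.58 from IRX3_S361A (adjusted p = 0.00418) and −0.82 from GFP (adjusted p = 9.45e-06).

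Cdk1 itself and its cyclins moved less. Cdk1, the kinase at the centre of mitosis, was at 414, 393 and 385 with GFP, at 339, 381 and 337 with IRX3_WT, at 382, 388.6 and 421 with IRX3_S361A and at 293, 359 and 340 with IRX3_S389A. The IRX3_WT and S389A libraries overlapped and both lay below those with GFP. With equal totals Cdk1 was called lower with IRX3_WT than with GFP (−0.35, limma adjusted p = 0.00098), which it was not as deposited. It fell by 0.27 from GFP (limma adjusted p = 0.015) and by 0.27 from IRX3_S361A (adjusted p = 0.0441) on the log2 scale with S389A, and differed by −0.09 from IRX3_WT (adjusted p = 0.552). The call against GFP was lost without GFP replicate 1 (adjusted p = 0.0683) and without IRX3_S389A replicate 1 (0.144), and that against S361A under 12 of 22 alternatives, among them each library left out except IRX3_S389A replicate 2 and those with IRX3_WT (adjusted p up to 0.274). Ccnb1, cyclin B1, was at 186, 192 and 191 with GFP, at 207, 217 and 191 with IRX3_WT, at 181, 214 and 208 with IRX3_S361A and at 148, 154 and 180 with IRX3_S389A. The S389A libraries were the lowest 3, by a narrow margin over 1 S361A library. It fell by 0.35 from IRX3_WT (SE 0.11, limma adjusted p = 0.0271), a call lost without IRX3_WT replicate 1 or 2 (adjusted p = 0.0714 and 0.0951) and without IRX3_S389A replicate 1 or 2 (0.132 and 0.095). With equal totals Ccnb1 was also called lower with S389A than with GFP (−0.41, limma adjusted p = 0.0028) and S361A (−0.38, adjusted p = 0.0214). Neither was called as deposited.

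Ccnb2, cyclin B2, behaved differently from Ccnb1. It was at 123.4, 111 and 101 with GFP, at 160.5, 152 and 141 with IRX3_WT, at 135, 103 and 91.5 with IRX3_S361A and at 106, 118 and 120 with IRX3_S389A. The IRX3_WT libraries were the 3 highest and the others overlapped. It rose by 0.43 with IRX3_WT relative to GFP (SE 0.14, limma adjusted p = 0.0152) and fell by 0.47 with IRX3_S361A relative to IRX3_WT (adjusted p = 0.0198). The first call was lost with equal totals (0.26, adjusted p = 0.133), without GFP replicate 3 (0.0833) and without IRX3_WT replicate 1 (0.0633), and the second without IRX3_WT replicate 1 (0.0915), IRX3_S361A replicate 2 (0.0662) or 3 (0.151). Its difference of −0.39 between S389A and IRX3_WT was not called (adjusted p = 0.0591).

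Foxm1, the transcription factor of late cell cycle genes, was lower in 2 of the 4 groups. It stood at 287, 251 and 267 with GFP, at 205, 215 and 223 with IRX3_WT, at 279, 248 and 273 with IRX3_S361A and at 169, 205 and 204 with IRX3_S389A. GFP and S361A overlapped, and so did IRX3_WT and S389A, with a gap between these pairs of groups. It fell with IRX3_WT relative to GFP by 0.32 (SE 0.10, limma adjusted p = 0.0117), and with S389A by 0.48 relative to GFP (adjusted p = 0.0003) and by 0.47 relative to S361A (adjusted p = 0.00161). With S361A it was 0.32 higher than with IRX3_WT (adjusted p = 0.0313), and S389A and IRX3_WT differed by −0.15 (adjusted p = 0.359). The call of IRX3_WT against GFP was lost without GFP replicate 1 (adjusted p = 0.0673), and that of S361A against IRX3_WT without IRX3_WT replicate 1 (0.118) or 2 (0.0596) and without IRX3_S361A replicate 1 (0.121) or 3 (0.0995). Ccna2, cyclin A2, fell with S389A relative to GFP (−0.27, limma adjusted p = 0.0101, and 0.0725 without IRX3_S389A replicate 1) and S361A (−0.38, adjusted p = 0.00197). Cdca3, an adaptor of a ubiquitin ligase needed for entry, fell relative to GFP alone among the 3 comparisons with S389A (−0.41, limma adjusted p = 0.02, and 0.109 without GFP replicate 2), and whether these differences differ from one another was not tested.

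Mki67 and Top2a, the 2 chromosome proteins of the list and its most used markers of dividing cells, were measured with the smallest errors. Mki67, which coats mitotic chromosomes and keeps them apart (chromosome 7, 135689784 to 135716361), was at 2845, 2800 and 2829 normalized counts with GFP, at 4236, 3973 and 4217 with IRX3_WT, at 3567, 3671 and 3673 with IRX3_S361A and at 3075, 3089 and 3304 with IRX3_S389A. No 2 groups overlapped, in the order IRX3_WT, S361A, S389A and GFP. It rose by 0.55 with IRX3_WT relative to GFP (SE 0.04, limma adjusted p = 4.84e-14). From IRX3_WT it fell by 0.19 with S361A (adjusted p = 0.00104) and by 0.39 with S389A (adjusted p = 5.51e-09), and S389A lay 0.21 below S361A (log2 difference −0.21, adjusted p = 0.000525). Its place against GFP depends on the scaling: the S389A difference was 0.16 as deposited (adjusted p = 0.0021) and −0.01 with equal totals (adjusted p = 0.852), whereas that of IRX3_WT was 0.37 with equal totals (adjusted p = 1.39e-09).

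Top2a, the topoisomerase that untangles sister chromatids (chromosome 11, 98992943 to 99024189), was at 1714, 1794 and 1706 with GFP, at 1956, 1782 and 1831 with IRX3_WT, at 1933, 1919 and 1903 with IRX3_S361A and at 1412, 1523 and 1562 with IRX3_S389A. The S389A libraries were the lowest 3, and the GFP and IRX3_WT libraries overlapped. With S389A it fell by 0.31 relative to IRX3_WT (SE 0.05, limma adjusted p = 1.37e-05), by 0.36 relative to S361A (adjusted p = 1.77e-06) and by 0.21 relative to GFP (adjusted p = 0.000572). Mki67 and Top2a thus both fell from IRX3_WT to S389A, while the difference of Top2a between IRX3_WT and GFP was 0.09 (limma adjusted p = 0.129) as deposited and −0.08 (adjusted p = 0.154) with equal totals. The rise of Top2a with S361A relative to GFP (0.14, limma adjusted p = 0.0273) was lost with equal totals (adjusted p = 0.678) and without any single one of 5 libraries (GFP replicate 1, 0.0903, or 3, 0.102; IRX3_S361A replicate 1, 0.0661, 2, 0.0667, or 3, 0.0536).

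**Figure D3:**
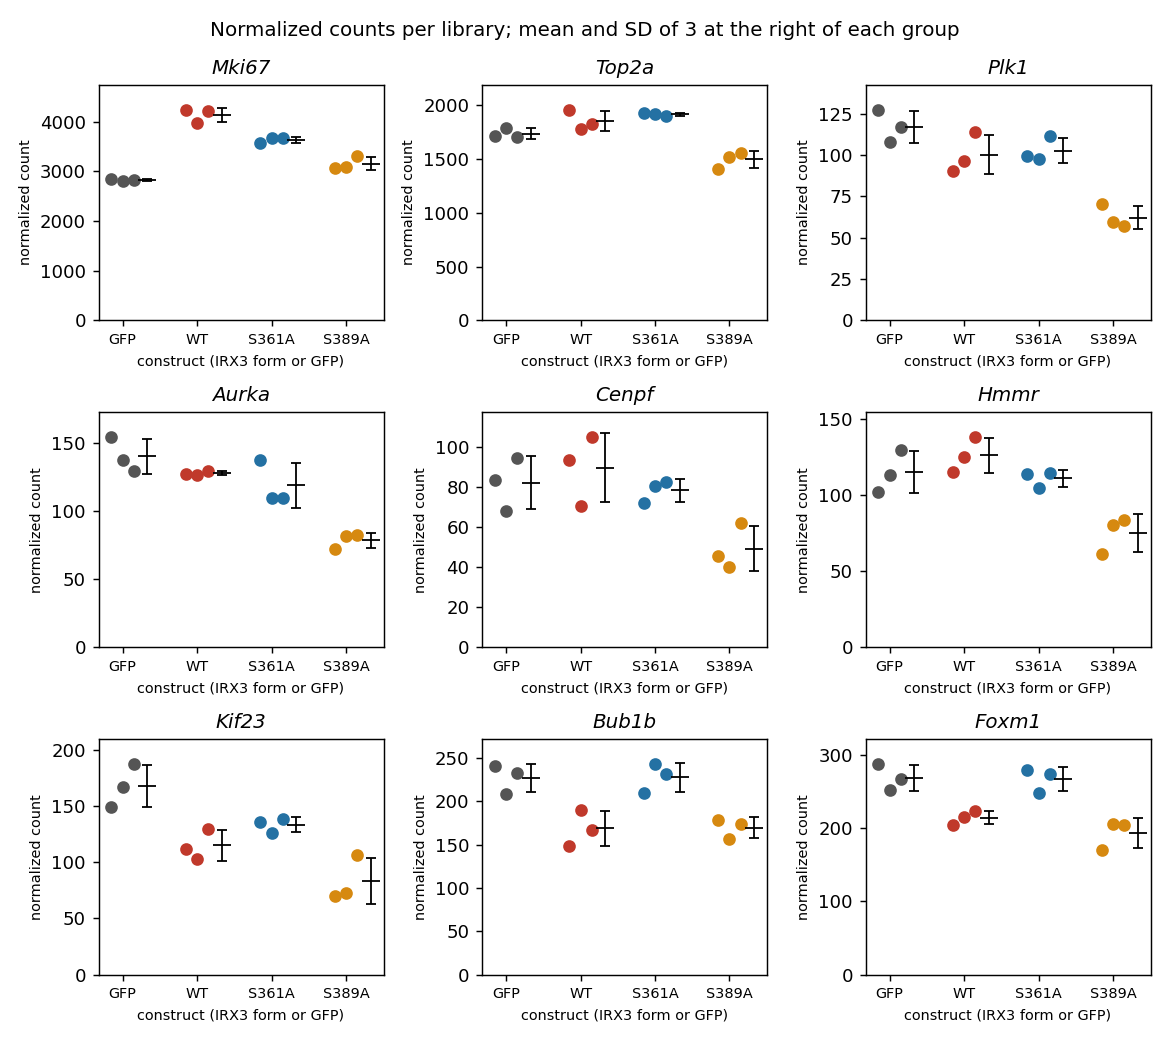
Normalized counts of 9 mitosis genes are plotted by library (points), with the mean and SD of the 3 libraries beside each group, on linear axes that start at 0. Plk1, Aurka, Hmmr and Cenpf are lowest in the 3 S389A libraries, Mki67 is highest with IRX3_WT, and Bub1b and Foxm1 have IRX3_WT and S389A at similar low levels.

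The 4 spindle checkpoint genes split by group. Bub1b, which encodes BUBR1 and binds CDC20 to delay anaphase, was at 240, 209 and 232 with GFP, at 149, 190 and 167 with IRX3_WT, at 210, 243 and 231 with IRX3_S361A and at 179, 156 and 174 with IRX3_S389A. As for Foxm1, the IRX3_WT and S389A libraries were low and overlapped, and those with GFP and S361A were high and overlapped. It fell by 0.43 with IRX3_WT relative to GFP (SE 0.11, limma adjusted p = 0.00217), rose by 0.44 with S361A relative to IRX3_WT (adjusted p = 0.00588) and differed by 0.01 between S389A and IRX3_WT (adjusted p = 0.962). The S361A call was lost without IRX3_WT replicate 1 (adjusted p = 0.0614), and that of S389A against S361A (−0.42, limma adjusted p = 0.0108) without IRX3_S361A replicate 2 (0.0634) or IRX3_S389A replicate 2 (0.0724).

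Ttk, the checkpoint kinase MPS1, was at 93.7, 75.5 and 88.2 with GFP, at 61.0, 69.6 and 55.8 with IRX3_WT, at 71.9, 92.4 and 78.4 with IRX3_S361A and at 69.2, 53.3 and 57.9 with IRX3_S389A. The same 2 groups were low. It fell with IRX3_WT (−0.46, limma adjusted p = 0.0365) and with S389A (−0.51, adjusted p = 0.023) relative to GFP, with an SE of 0.18. Both calls were lost without GFP replicate 1 (adjusted p = 0.133 and 0.0975) or 3 (0.0952 and 0.0688), the first also without IRX3_WT replicate 1 (0.078) or 3 (0.125) and the second without IRX3_S389A replicate 2 (0.102) or 3 (0.0597). Bub1, a kinase that recruits the checkpoint to kinetochores, fell with S389A relative to IRX3_WT (−0.32, limma adjusted p = 0.044), S361A (−0.37, adjusted p = 0.0232) and GFP (−0.48, adjusted p = 0.000587). The first of these was lost under 12 of 22 alternatives (adjusted p = 0.183 without IRX3_S389A replicate 1) and the second, for one, without IRX3_S361A replicate 3 (0.162). Mad2l1, which encodes MAD2, rose with IRX3_WT relative to GFP (0.28, limma adjusted p = 0.00216; 0.10, adjusted p = 0.25 with equal totals) and fell from IRX3_WT to S389A (−0.23, adjusted p = 0.0248, and 0.104 without IRX3_S389A replicate 3).

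Genes of mitotic exit gave the one rise with S389A that held under both scalings. Pttg1, which encodes securin, the inhibitor of separase, was at 180, 203 and 210 with GFP, at 222, 242 and 211 with IRX3_WT, at 209, 207 and 265 with IRX3_S361A and at 288, 281 and 261 with IRX3_S389A. The S389A libraries lay above those with GFP and IRX3_WT and overlapped 1 S361A library. It rose by 0.49 relative to GFP (SE 0.11, limma adjusted p = 0.000424; 0.32, adjusted p = 0.0147 with equal totals), while 0.30 against IRX3_WT was not called (adjusted p = 0.0563). Espl1, separase itself, which cuts cohesin, fell with both IRX3_WT (−0.35, limma adjusted p = 0.022, and 0.278 without IRX3_WT replicate 1) and S389A (−0.44, adjusted p = 0.00472) relative to GFP. Pttg1 and Espl1 are named here by library or direction after their values were seen.

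Ube2c, the ubiquitin-conjugating enzyme of the anaphase-promoting complex, was at 129, 138 and 150.5 with GFP, at 171, 195 and 219.6 with IRX3_WT, at 155, 137 and 149.8 with IRX3_S361A and at 126, 171 and 119.9 with IRX3_S389A. The IRX3_WT libraries were the 3 highest, with 1 S389A library just below them. It rose by 0.48 with IRX3_WT relative to GFP (SE 0.13, limma adjusted p = 0.00369; 0.31, adjusted p = 0.0547 with equal totals). From IRX3_WT it fell by 0.40 with S361A (adjusted p = 0.0358) and by 0.50 with S389A (adjusted p = 0.00804). The first fall was lost with equal totals (adjusted p = 0.0757) and without IRX3_WT replicate 2 (0.0759) or 3 (0.179) or any one S361A replicate (0.0501 to 0.125), the second without IRX3_WT replicate 3 (0.0703) or IRX3_S389A replicate 1 (0.0529) or 3 (0.059). Cdc20, the activator of the complex, fell with S389A relative to GFP (−0.40, limma adjusted p = 0.0334) and S361A (−0.47, adjusted p = 0.0373), with libraries that overlapped those with GFP. These calls were lost, among others, without GFP replicate 2 (adjusted p = 0.176) and without IRX3_S361A replicate 3 (0.161).

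All 4 genes of the chromosomal passenger complex, which corrects faulty attachments and then starts cytokinesis, fell with S389A relative to GFP. Aurkb, its kinase, was at 218, 220 and 209 with GFP, at 212, 152 and 141 with IRX3_WT, at 224, 147 and 197 with IRX3_S361A and at 132, 131 and 134 with IRX3_S389A. The S389A libraries were the lowest and closest together, and 1 library with IRX3_WT lay among those with GFP. The differences from GFP were −0.70 for Aurkb (SE 0.14, limma adjusted p = 0.000101), −0.31 for Birc5, survivin (adjusted p = 0.0207), −0.28 for Cdca8, borealin (adjusted p = 0.0166) and −0.23 for the scaffold Incenp (adjusted p = 0.00173). Relative to S361A, Aurkb, Cdca8 and Incenp fell as well (−0.49, −0.37 and −0.19). Against GFP the calls of Birc5 and Cdca8 were lost without IRX3_S389A replicate 3 (adjusted p = 0.139) and 1 (0.108). Against S361A that of Aurkb was lost without IRX3_S361A replicate 1 (adjusted p = 0.137), and those of Cdca8 and Incenp without IRX3_S389A replicate 1 (0.0602 and 0.24). Between S389A and IRX3_WT limma called 0 of the 4, as did edgeR and DESeq2, although 3 were lower by unadjusted p (median −0.23). There Birc5 had −0.30 (adjusted p = 0.0553) and Aurkb −0.32 (adjusted p = 0.122).

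Kinetochore genes, whose products tie chromosomes to microtubules, were uneven. Cenpf, a large protein of the outer kinetochore, was at 83.5, 68.1 and 94.4 with GFP, at 93.5, 70.6 and 105 with IRX3_WT, at 71.9, 80.5 and 82.4 with IRX3_S361A and at 45.5, 40.3 and 62.0 with IRX3_S389A. The S389A libraries were again the lowest 3 of 12. It fell by 0.86 relative to IRX3_WT (SE 0.19, limma adjusted p = 0.00119), by 0.68 relative to S361A (adjusted p = 0.0143) and by 0.74 relative to GFP (adjusted p = 0.00199). Against S361A the call was lost without IRX3_S361A replicate 2 (adjusted p = 0.0506) or 3 (0.0681) and without IRX3_S389A replicate 1 (0.053) or 2 (0.103). Spc25, of the NDC80 complex, fell relative to IRX3_WT (−0.49, limma adjusted p = 0.017) and GFP (−0.36, adjusted p = 0.0472), and Cenpa, the histone of centromeres, relative to GFP (−0.59, adjusted p = 0.0145). Without IRX3_S389A replicate 1 the Spc25 calls were lost (adjusted p = 0.102 and 0.192), and without GFP replicate 2 that of Cenpa was (−0.35, adjusted p = 0.2).

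Ndc80 and Nuf2, the partners of Spc25, did not pass the test in any comparison with S389A as deposited. With equal totals Ndc80 was called lower with S389A than with GFP (−0.36, limma adjusted p = 0.0241) and S361A (−0.44, adjusted p = 0.0261), and Nuf2 than with GFP (−0.37, adjusted p = 0.00893). Ndc80 was at 137, 156 and 140 with GFP, at 133, 110 and 122 with IRX3_WT, at 175, 142 and 179 with IRX3_S361A and at 108, 133 and 138 with IRX3_S389A. The S361A libraries held its highest values, and those of IRX3_WT and S389A overlapped. It rose by 0.44 with S361A relative to IRX3_WT (SE 0.13, limma adjusted p = 0.0205), a call lost without IRX3_WT replicate 2 (adjusted p = 0.0913) or IRX3_S361A replicate 1 (0.0908) or 3 (0.108). Cenpe, the kinetochore motor that moves chromosomes to the metaphase plate, rose relative to GFP with IRX3_WT (0.22, limma adjusted p = 0.0276) and S361A (0.28, adjusted p = 0.00657), but with equal totals these were 0.04 and 0.17 and not called (adjusted p = 0.699 and 0.102). The first was also lost, for one, without IRX3_WT replicate 1 (adjusted p = 0.152).

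Of the 5 other mitotic kinesins, Kif11 fell in the 3 comparisons with S389A. Kif11 (Eg5, which pushes the spindle poles apart) differed by −0.31 from IRX3_WT (limma adjusted p = 0.0306), by −0.35 from S361A (adjusted p = 0.0199) and by −0.50 from GFP (adjusted p = 0.000147), of which the first 2 were lost without IRX3_S389A replicate 1 (0.187 and 0.134). Kif2c (MCAK, which shortens microtubules) and Kif20a (MKLP2) fell relative to GFP by 0.49 (limma adjusted p = 0.0285, and 0.245 with a fall of 0.29 without IRX3_S389A replicate 3) and 0.35 (adjusted p = 0.0359, and 0.202 without GFP replicate 2). Kif4 and Kif22, which act on chromosome arms, passed the test in no comparison as deposited, with S389A differences of −0.39 to −0.13. With equal totals both were called lower with S389A than with GFP (−0.29 and −0.55, limma adjusted p = 0.0477 and 0.0142).

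The 4 spindle microtubule genes had the lowest median of any role between S389A and IRX3_WT, −0.49. Hmmr, a centrosome and spindle protein, was at 102, 113 and 129 with GFP, at 115, 125 and 138 with IRX3_WT, at 113, 104 and 115 with IRX3_S361A and at 60.9, 80.5 and 83.3 with IRX3_S389A. The S389A libraries were the lowest 3 of 12. It fell by 0.75 relative to IRX3_WT (SE 0.15, limma adjusted p = 0.000416), by 0.62 relative to GFP (adjusted p = 0.00126) and by 0.57 relative to S361A (adjusted p = 0.00988), the last of which was lost without IRX3_S389A replicate 1 (adjusted p = 0.0942). Ckap2l and Nusap1, which bundle or bind spindle microtubules, rose with IRX3_WT relative to GFP (0.44 and 0.37, limma adjusted p = 0.0008 and 0.00548; 0.27 and 0.19, adjusted p = 0.0334 and 0.132, with equal totals) and fell from IRX3_WT to S389A (−0.54 and −0.43, adjusted p = 0.000238 and 0.00412). Their differences between S389A and GFP were −0.10 and −0.06 as deposited (limma adjusted p = 0.489 and 0.699) and −0.27 and −0.23 with equal totals (adjusted p = 0.0304 and 0.0719), which called Ckap2l lower. Tpx2, which activates Aurora A, passed the test in no comparison as deposited, but with equal totals it was called lower with S389A than with GFP (−0.33, limma adjusted p = 0.00593) and S361A (−0.29, adjusted p = 0.047).

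The 5 cytokinesis genes all fell with S389A relative to GFP, with a median of −0.59. Kif23, the kinesin of centralspindlin that organises the midzone (chromosome 9, 61915905 to 61946774), was at 149, 167 and 187 with GFP, at 112, 103 and 130 with IRX3_WT, at 136, 126 and 139 with IRX3_S361A and at 70.2, 72.5 and 107 with IRX3_S389A. The GFP libraries were the 3 highest, and 1 S389A library reached the range of IRX3_WT. It fell with IRX3_WT by 0.54 relative to GFP (SE 0.15, limma adjusted p = 0.0037) and with S389A by 1.02 relative to GFP (adjusted p = 6.7e-07) and 0.70 relative to S361A (adjusted p = 0.00123). The call of S389A against IRX3_WT (−0.48, limma adjusted p = 0.0243) was lost without IRX3_WT replicate 1 (adjusted p = 0.052) or 3 (0.136) and without IRX3_S389A replicate 1 (0.149) or 2 (0.125).

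Ect2, which activates RhoA at the cleavage site, was at 159, 169 and 178 with GFP, at 126, 108 and 160 with IRX3_WT, at 114, 129 and 139 with IRX3_S361A and at 113, 99.6 and 124 with IRX3_S389A. It was highest with GFP, and the 3 groups with an IRX3 form overlapped. It fell relative to GFP with IRX3_WT (−0.38, SE 0.14, limma adjusted p = 0.0319), S361A (−0.41, adjusted p = 0.0297) and S389A (−0.59, adjusted p = 0.000948). The first call was lost without GFP replicate 2 (adjusted p = 0.0751) or 3 (0.111) or IRX3_WT replicate 1 (0.0833) or 2 (0.215), the second without GFP replicate 2 (0.0757) or 3 (0.112) or IRX3_S361A replicate 1 (0.13) or 2 (0.0581). Anln, anillin, which anchors the contractile ring, fell with IRX3_WT (−0.36, limma adjusted p = 0.00235) and S389A (−0.61, adjusted p = 1.67e-06) relative to GFP and was higher with S361A than with IRX3_WT (0.32, adjusted p = 0.0144, and 0.087 without IRX3_S361A replicate 3). Prc1 and Racgap1, of the central spindle, fell with S389A relative to IRX3_WT (−0.36 and −0.25, limma adjusted p = 0.0183 and 0.0359), S361A (−0.41 and −0.30) and GFP (−0.32 and −0.25). Each of these 6 calls was lost without at least 1 library, with adjusted p of up to 0.125 for Prc1 (against S361A, without IRX3_S361A replicate 3) and 0.217 for Racgap1 (against IRX3_WT, without IRX3_S389A replicate 1).

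Other cell cycle genes shared this pattern in part. A list of 79 further mitosis genes, of which 78 were tested, had 12 lower and 0 higher between S389A and IRX3_WT (median −0.22). Of all genes, 7.08% were lower and 8.21% higher. By unadjusted p 26 were lower and 1 higher, while edgeR called 12 lower and DESeq2 11, both with 0 higher. Those with the smallest limma p were Iqgap3 (log2 difference −0.58), Kntc1 (−0.34), a kinetochore gene, and the condensin subunits Smc2 (−0.26) and Smc4 (−0.27). The lowest log2 difference among the 78 was −0.70. Against S361A 20 of these were lower and 0 higher, against 3.16% and 7% of all genes (median −0.30; 42 and 0 by unadjusted p, 19 and 0 by edgeR, 17 and 0 by DESeq2). Against GFP 45 were lower and 2 higher, against 16.2% and 18.8% (median −0.40). With equal totals these were 61 and 1, against 40.4% and 9.98% of all genes. With IRX3_WT relative to GFP 21 fell and 5 rose, against 18.6% and 21% (median −0.19). With equal totals these were 42 and 2, against 41.3% and 10.4% of all genes. The mean deviation of this list separated all 4 groups: 0.18 to 0.24 with GFP, 0.03 to 0.11 with S361A, −0.04 to −0.02 with IRX3_WT and −0.29 to −0.18 with S389A. For the 42 members, the groups other than S389A overlapped, GFP and IRX3_WT only narrowly (lowest GFP library 0.0765, highest IRX3_WT library 0.0767). Both lists are described here as deposited, and these deviations were not computed with equal totals. The 25 subunit genes of the anaphase-promoting complex and cohesin, most of them made throughout the cycle, had 1 lower between S389A and IRX3_WT, Cdc27 (−0.18), and 0 higher (median −0.05), with 6 lower and 1 higher by unadjusted p, 1 lower by edgeR and 2 by DESeq2. The call of Cdc27 was lost without IRX3_WT replicate 1 (limma adjusted p = 0.18) or IRX3_S389A replicate 2 (0.215). Their limma, edgeR and DESeq2 counts were 0 and 0 relative to S361A, with 3 lower and 1 higher by unadjusted p. With equal totals 3 were lower and 0 higher there, against 7.88% and 4.47% of all genes. Between S389A and GFP 3 were lower and 1 higher as deposited, against 16.2% and 18.8% of all genes. With equal totals these were 16 and 0, against 40.4% and 9.98%. The mean of these 25 genes differed between libraries by less than 0.08 on the log2 scale.

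The 30 genes of DNA replication in S phase had another order of groups. Relative to GFP, 26 fell and 2 rose with IRX3_WT (median −0.40), and 26 fell and 0 rose with S389A (median −0.38), while 11 fell and 0 rose with S361A (median −0.14). Of all genes, 18.6%, 16.2% and 10.9% fell in these 3 comparisons. Neither unadjusted p, edgeR nor DESeq2 gave any rise in the last 2 of them. With equal totals 27, 28 and 19 fell, in the same order, against 41.3%, 40.4% and 24.1% of all genes, and 0 rose. Uhrf1 (−1.05), Mcm2 (−0.68), Chaf1a (−1.31) and Cdc6 (−1.95) had the smallest limma p with IRX3_WT relative to GFP. Between S389A and IRX3_WT, where 17 of the 42 mitosis genes fell, 3 of the S phase genes rose and 2 fell (median 0.07), shares near the 8.21% and 7.08% of all genes, among them Mcm6 (0.19) and Chaf1a (0.34) up and Cdt1 (−0.39) and Tyms (−0.34) down. Without IRX3_WT replicate 3 the calls of Mcm6 and Chaf1a were lost (limma adjusted p = 0.138 and 0.145), as was that of Tyms without IRX3_WT replicate 1 (0.112). Relative to IRX3_WT, 17 S phase genes rose and 2 fell with S361A (median 0.25), against 6.43% and 9.07% of all genes. Between S389A and S361A 12 fell and 0 rose (median −0.20), against 3.16% and 7% of all genes. In that comparison S phase genes thus fell as the mitosis genes did. The difference between the lists was not tested. Of 30 genes of the DREAM complex, E2F factors and cyclin-dependent kinase inhibitors, 4 rose and 8 fell with IRX3_WT relative to GFP (median −0.02), against 21% and 18.6% of all genes. With equal totals these were 2 and 15, against 10.4% and 41.3% of all genes. E2f2 (−2.78) was among those that fell, and Cdkn1a (0.68), the p21 inhibitor, and Cdkn1b (0.46), the p27 inhibitor, among those that rose. Between S389A and IRX3_WT 1 rose and 2 fell (median −0.09), Cdkn1b among the latter (−0.42), against 8.21% and 7.08% of all genes.

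**Figure D4:**
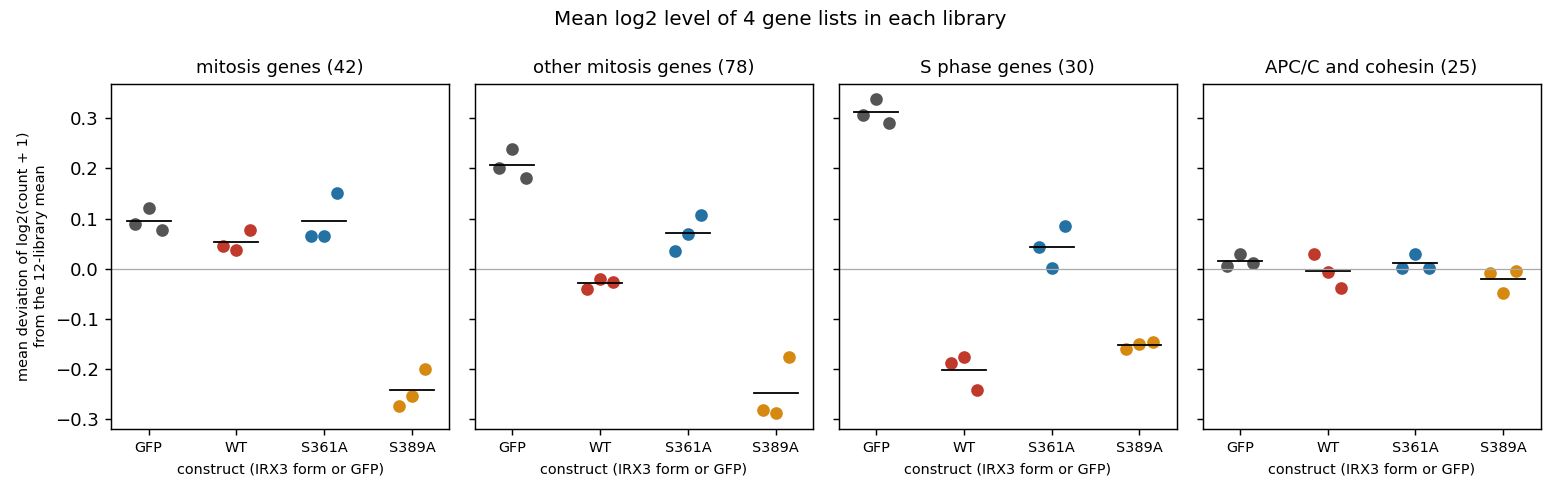
Each point is a library: the mean deviation of log2(normalized count + 1) from the 12-library mean over the genes of a list, with the group mean as a line, for the mitosis genes, 78 further mitosis genes, 30 S phase genes and 25 genes of the anaphase-promoting complex and cohesin. The mitosis genes are at −0.27 to −0.20 in the S389A libraries and at 0.04 to 0.15 elsewhere, whereas S phase genes are highest with GFP (0.29 to 0.34) and lowest with IRX3_WT (−0.24 to −0.18).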

How the data were processed

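Total RNA of 12 macrophage samples was sequenced (3 libraries for each of 4 constructs). Tools named in the submitters' processing notes are Trimmomatic, HISAT2 2.1.0 and StringTie 1.3.5, with mm10 as the build. For the counter, strand setting, annotation and normalizing tool, the sources used here give no name. The deposited signal is a gene's read count over the size factor of its library, as its values show: 100% of values were whole multiples of 1 step (tolerance 1e-06). Whole reads are claimed for 9 libraries, since 3 steps lay within 1% of 1. The floor of 3 reads is 2.67 to 3.41 normalized counts and covers counting error only.

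The main test was limma 3.58.1 (trend, robust, R 4.3.3) on log2(value + 1) in 1 fit of all 12 libraries (8 residual degrees of freedom), adjusted by Benjamini-Hochberg over 13369 genes. The pseudocount of 1 understates changes of low genes. Alternatives were pseudocounts of 0.5 and 5, no filter, a minimum of 50, equal totals, edgeR 4.0.16 and DESeq2 1.42.0 on recovered reads (13461 genes), pairs of groups alone, a replicate block, and each library left out. edgeR on 9 libraries was added after seeing the data. The script was tested on simulated data.

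Identifiers matched GENCODE M21 (99.5%). Values by library are given for Mki67, Top2a, Cdk1, Ccnb1, Foxm1, the 4 called members with the largest differences in each comparison with IRX3_WT and the 2 in each of the others, and, chosen afterwards, Pttg1 and Aurkb. From each other list up to 4 genes with the smallest p are named. The members and lists were chosen with earlier results of these data known, and no test was made of a list.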

Additional observations from a re-analysis of the deposited data

How the results depend on the processing

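Members called (main: 15 for IRX3_WT against GFP, 7 for S361A against IRX3_WT, 17 for S389A against IRX3_WT, 4 for S361A against GFP, 30 for S389A against GFP, 21 for S389A against S361A and 36 over the 4 groups) stayed within 1.5 times the main count except as follows. Leaving out 1 library gave 10 to 15, 2 to 7, 10 to 18, 2 to 5, 23 to 30, 11 to 21 and 28 to 35, in that order. Without the filter on low values S361A against GFP had 2. On the 9 libraries with claimed whole reads edgeR called 1 for S361A against IRX3_WT, 10 for S389A against IRX3_WT, 2 for S361A against GFP and 5 for S389A against S361A. The fit on 9 libraries leaves 1 library with IRX3_S361A, assumed to vary like the other groups. The cause of these changes beyond fewer libraries or genes was not tested. The median of S361A against IRX3_WT changed sign without IRX3_S361A replicate 3 (−0.0099; up to 0.062 without IRX3_S361A replicate 1) and with edgeR on 9 libraries (−0.016). That of S361A against GFP ran from −0.032 (without IRX3_S361A replicate 3) to 0.045 (without IRX3_S361A replicate 1). Mki67 with S389A against GFP was −0.010 with equal totals. Of 94 calls of members over the 6 comparisons, 35 held under every alternative that was run, among them Plk1 and Aurka with S389A against IRX3_WT.

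Replicate numbers did not pair the libraries: none of the 18 same-numbered pairs correlated over 0.1, and 3 of 12 libraries were closest to one of their own number. With the replicate block the counts were 15, 7, 16, 4, 29, 21 and 35.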
